A study of Oryza sativa with 58 samples.

Results

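RNA-Seq libraries of mature leaf and root were compared in the rice varieties, MH63, ZS97 and Nip, to ask which genes are expressed differently in these tissues. The 12 libraries, 6 of each tissue with 2 for every variety, were those labelled mature leaf or root among the 24 that list genes by MH63 identifiers, out of 58 in the series. MH63 and ZS97 are indica varieties and Nip (Nipponbare) is a japonica variety, and the 3 varieties carry no transgene or treatment according to the labels. All seeds were soaked for 72 h at 37 °C. Roots were taken 7 d after planting from seedlings on moist filter paper in a phytotron, with 14 h of light at 32 °C and 10 h of dark at 28 °C. Mature leaves came from farm plants that had been transplanted as seedlings of about 20 d and had reached floral induction. Tissue therefore cannot be told apart from plant age, growth place and sampling time. The labels do not say whether 2 replicates came from separate plants, so p-values measure the spread between these libraries, which may be technical.

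A mature rice leaf is the main site of photosynthesis and exports sugars, and its transcripts are dominated by those for the light-harvesting and carbon-fixing machinery encoded in the nucleus. The seedling root takes up water, nitrogen, phosphorus and metals, and it holds a dividing meristem together with elongating and differentiating cells. As bulk samples mix many cell types, a lower level in a tissue can stand for fewer cells of a type or for less RNA per cell. The table of gene names at hand paired none of the 57174 listed MH63 identifiers with a symbol. For this reason the marker genes of leaf and root could not be checked and no pathway is named, and single genes appear by identifier with no function.

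The values are FPKM, fragment numbers that Cufflinks scales to gene length and library size, and the number of reads behind a value is unknown. Listed FPKM summed to between 995120 and 1512107 in mature leaf and between 586358 and 627441 in root. From the steps between low values, depth relative to MH63 root replicate 1 was estimated at 0.667 to 1.38 in the root libraries and 0.228 to 0.523 in the mature leaf libraries. A scaling of the values across libraries, which is unknown here, would change these steps as well. When the estimates were multiplied by the FPKM sums, root lay at 0.658 to 1.29 and mature leaf at 0.419 to 0.839, so that the tissues overlapped. Replicates correlated across genes with Pearson coefficients of 0.966 to 0.987 as log2(FPKM + 1), a description since genes are not independent. The variety labels were read from genes above 2 FPKM in all young leaf and panicle libraries of one variety and at 0 in those of another, in 6 lists of 46 to 211 genes. In mature leaf, between 86.9% and 98.3% of such a list was above 0 in the variety that had the genes, and between 0% and 9.84% in the variety that lacked them. In root these shares were 93.0% to 99.2% and 2.76% to 52.2%. In both tissues the variety that had the genes thus lay above the variety that lacked them in each list. The separation was weakest in MH63 root, with 41.3% and 52.2% for the 46 genes present in ZS97.

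Mature leaf libraries were dominated by few genes. The 10 highest genes of a library made up 18.3% and 16.8% of the FPKM sum in MH63 mature leaf, 17.8% and 17.8% in ZS97 and 15.2% and 15.2% in Nip. In root the same share was 5.46% and 5.08% in MH63, 7.68% and 6.86% in ZS97 and 6.64% and 6.13% in Nip. All 6 mature leaf libraries lay above all 6 root libraries, with means of 16.8% ± 1.35 and 6.31% ± 0.956 (SD, n = 6 each), a difference of 1.43 in log2 share (exact permutation test within variety, two-sided p = 0.00926). That p is the smallest that permuting labels within variety allows. For the 100 highest genes the means were 43.9% ± 3.21 in mature leaf and 19.4% ± 1.23 in root (exact permutation p = 0.00926, n = 6 each), again with no overlap between the tissues. Between 113 and 163 genes exceeded 1000 FPKM in a mature leaf library, against 23 to 46 in a root library.

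**Figure D1:**
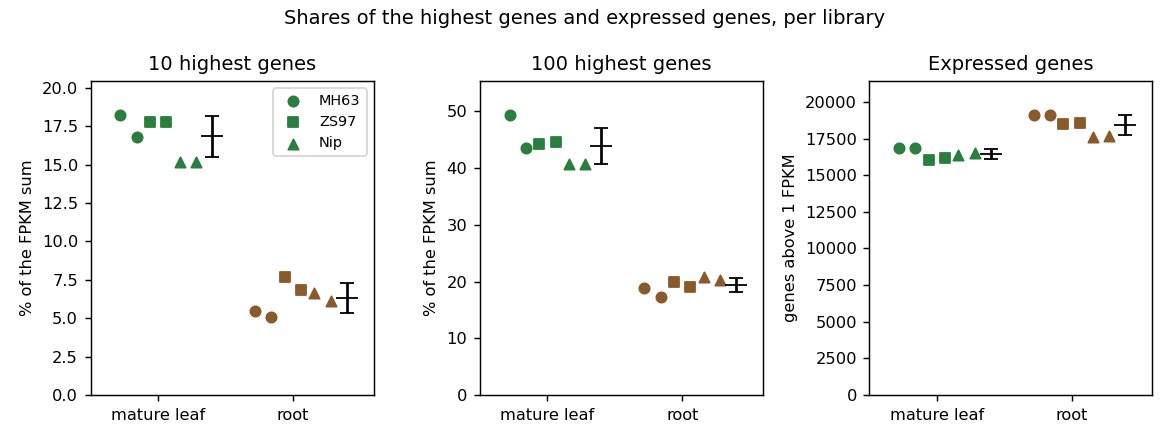
Share of the FPKM sum in the 10 and the 100 highest genes of each library (in %), and number of genes above 1 FPKM, with 1 point per library, shape for variety, and the mean with SD of the 6 libraries of a tissue in black. Mature leaf lay between 15.2% and 18.3% for the 10 highest genes and root between 5.08% and 7.68%, and fewer genes were above 1 FPKM in each mature leaf library than in any root library.

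These highest genes were low in root. The 10 genes with the highest mean in mature leaf, at 12103 to 28823 FPKM, had means between 0.913 and 15.7 FPKM in root. Together they made up 13.2% to 17.5% of a mature leaf library and 0.00588% to 0.0196% of a root library. All 10 were called higher in mature leaf by the test described below, and 5 of them were among the 10 highest in each of the 6 libraries. The 10 highest genes of root, at 1885 to 11608 FPKM, included 5 that were called higher in root and 5 that were not called, and their mean in mature leaf had a median of 1190.5 FPKM. Of the 100 highest genes of mature leaf, 89 were called higher there and 11 were not called. Of the 100 highest genes of root, 50 were called higher in root, 48 were not called and 2 were called higher in mature leaf. The 100 highest lists of the tissues shared 13 genes. Genes chosen as highest in a tissue lean toward that tissue in a test on the same libraries, so these counts are a description. Of all genes tested, 13.8% were called higher in mature leaf and 19.8% higher in root.

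Fewer genes were expressed in mature leaf than in root. An FPKM above 1, the limit the study uses, was reached by 16848 and 16880 genes in MH63 mature leaf, 16067 and 16165 in ZS97 and 16347 and 16509 in Nip. The root libraries had 19109 and 19130 in MH63, 18519 and 18564 in ZS97 and 17631 and 17646 in Nip. The tissue means of 16469 ± 341 and 18433 ± 668 (SD, n = 6 each) gave a difference of -1964 genes, mature leaf minus root (exact permutation p = 0.00926). Within root the varieties ranked MH63, ZS97, Nip with no overlap, whereas in mature leaf both ZS97 libraries lay below both Nip libraries. The estimated depth, lower in mature leaf but dependent on an unknown scaling, moved with this difference, and its part in it was not tested.

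To find genes that differ between the tissues, log2(FPKM + 1) was tested with limma with variety as a block. The 23336 genes tested averaged above 1 FPKM in 1 or more of the 6 groups. A call needed a p below 0.05 after Benjamini-Hochberg adjustment together with a log2 change of more than 1.5 up or down. These cutoffs follow the methods of the study. Of the genes tested, 7836 (33.6%) were called, 3222 (13.8%) higher in mature leaf and 4614 (19.8%) higher in root. A further 9374 genes had an adjusted p below 0.05 with a smaller change, and 6126 had a higher p. The median log2 difference of all genes tested was -0.17, and quantile normalization moved it to -0.04 with 3589 calls for mature leaf and 4273 for root. The balance of directions rests on the scale. When each library was scaled to the same sum, which was added once the data had been seen, the median was -0.84, mature leaf had 2225 calls and root 7810, and 22.2% of calls instead of 41.1% were for mature leaf. No gene called on the FPKM scale was called in the opposite direction on either of these scales, and 6839 of the 7836 calls were kept after scaling to equal sums.

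**Figure D2:**
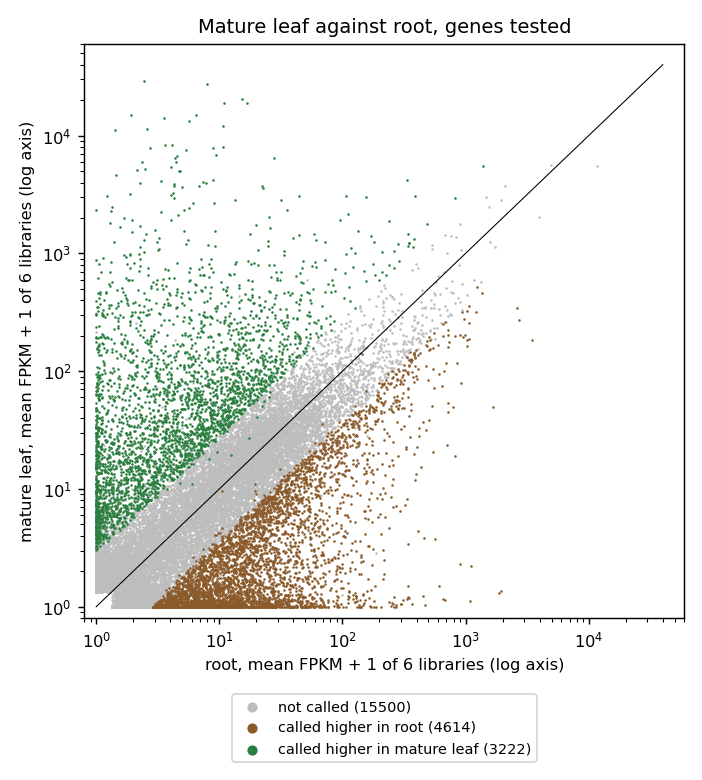
Mean FPKM + 1 in the 6 root libraries (x axis, log) against that in the 6 mature leaf libraries (y axis, log) for the 23336 genes tested, with the line of equal values. The 3222 genes called higher in mature leaf reach 28823 FPKM near the left edge, and the 4614 called higher in root are drawn in brown.

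On the FPKM scale, the genes called higher in mature leaf had the larger changes and the higher levels. Their median log2 fold change was 2.78 (quartiles 1.99 and 4.18), and their median level was 40.4 FPKM in mature leaf and 2.64 FPKM in root. Genes higher in root had a median log2 fold change of 2.47 in size (quartiles 1.90 and 3.42), with 15.5 FPKM in root and 0.711 FPKM in mature leaf. A change above 6 on the log2 scale was found for 350 mature leaf genes and 96 root genes, and a change above 9 for 65 and 5. Since 1 FPKM was added to every value, the changes of low genes are understated. With 5 FPKM added, there were 2163 calls for mature leaf and 2300 for root.

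The share of calls in each direction was also read by the level of the gene, taken as the geometric mean over all 12 libraries so that both tissues weigh the same, a grouping added after seeing the data. Of the 9943 genes at 1 to 10 FPKM, 14.4% were called higher in mature leaf and 30.6% higher in root. Among the 8120 genes at 10 to 100 FPKM the shares were 18.95% and 13.79%, and among the 742 genes at 100 FPKM or more they were 23.45% and 21.02%. After scaling to equal sums, root calls outnumbered mature leaf calls at every level, with 9.66% and 43.5%, 11.9% and 31.7%, and 17.2% and 44.7% in the same 3 ranges. Called genes made up 66.0% to 75.1% (higher in mature leaf) and 1.93% to 3.59% (higher in root) of the FPKM sum of a mature leaf library. In a root library the same genes made up 4.72% to 5.72% and 36.4% to 40.1%. The genes were called on these same libraries, so the call already favors the larger share in the tissue of the call. These shares are therefore a description.

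Library by library, 11866 of the genes tested (50.8%) had 6 values of a tissue that all lay above the 6 of the other. Root was higher for 7067 of them and mature leaf for 4799. Of the called genes, 2864 (88.9%) of those higher in mature leaf and 4283 (92.8%) of those higher in root were separated in this way. Scaling to equal sums left 2720 separated genes that were higher in mature leaf and 10584 higher in root.

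Some genes were listed at 0 throughout a tissue. Above 1 FPKM in all 6 root libraries and at 0 in all 6 mature leaf libraries were 526 genes, of which 106 were above 10 FPKM in every root library. The reverse held for 70 genes, of which 25 were above 10 FPKM in every mature leaf library, with a mean of up to 2349 FPKM. In young leaf, 85 of the 526 root genes were at 0 in all 6 libraries, and 46 were at 0 in young leaf and panicle alike. Of the 70 mature leaf genes, 25 were above 1 FPKM in all 6 young leaf libraries and 3 in all 6 panicle libraries. A value of 0 can be a failed estimate or too few reads, and the estimated depth of mature leaf was lower, so the larger number of root genes is given as listed.

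Genes were named by rule, as the 2 in each direction with the largest change among called genes with no overlap and at least 10 FPKM in the higher tissue. Their p-values come from the same values that chose them and add no support. MH11g0663900, on chromosome 11 by its identifier, had 35528 and 27223 FPKM in MH63 mature leaf, 28040 and 26930 in ZS97 and 27792 and 27424 in Nip. In root it had 0.696 and 0.420 FPKM in MH63, 0.0726 and 0.380 in ZS97 and 3.22 and 3.85 in Nip. Its mature leaf values were thus alike in the 3 varieties while its low root values were higher in Nip. The log2 fold change was 13.78 ± 0.28 (SE, limma adjusted p = 7.0e-12). The exact permutation p was 0.00926 and mature leaf was higher in 6 of 6 libraries, both fixed by the rule of no overlap. In young leaf the gene was at 281 to 816 FPKM and in panicle at 4.25 to 13.7 FPKM.

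MH12g0344600, on chromosome 12, had between 10591 and 12240 FPKM in the 6 mature leaf libraries. It was at 0 in 5 root libraries and at 2.58 FPKM in Nip root replicate 2. The log2 fold change of 13.14 ± 0.28 (SE, limma adjusted p = 9.2e-12) is set by the 1 FPKM that was added and ranged from 11.02 to 15.97 over the alternatives. In young leaf this gene lay between 1377 and 4769 FPKM, and in panicle it was at 0 in all 6 libraries. Its order of tissues was mature leaf, young leaf and then root and panicle, and those last tissues did not differ beyond their spread.

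Of the genes higher in root, MH02g0521200 on chromosome 2 had 1553 and 1393 FPKM in MH63 root, 1842 and 1820 in ZS97 and 2288 and 2417 in Nip. In mature leaf it was at 0 in the MH63 and ZS97 libraries and at 0.915 and 0.860 FPKM in Nip. Root values were lowest in MH63 and highest in Nip without overlap, and all lay above every mature leaf value. The log2 fold change was -10.55 ± 0.09 (SE, limma adjusted p = 1.8e-13), and it ranged from -13.07 to -8.46 over the alternatives, as the added 1 FPKM sets its size. Young leaf (at most 0.592 FPKM) and panicle (at most 0.356 FPKM) were as low as mature leaf.

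MH03g0195800 on chromosome 3 had 575 and 518 FPKM in MH63 root, 2739 and 2884 in ZS97 and 2358 and 2519 in Nip. Its mature leaf values lay between 0 and 1.20 FPKM, and young leaf and panicle did not exceed 0.280 FPKM. The log2 fold change was -10.23 ± 0.31 (SE, limma adjusted p = 1.3e-10), and it was -9.00 in MH63, -11.38 in ZS97 and -10.32 in Nip. MH63 root was lower than the root of the other varieties in both replicates, and the interaction with variety passed the test (limma adjusted p = 1.2e-04).

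**Figure D3:**
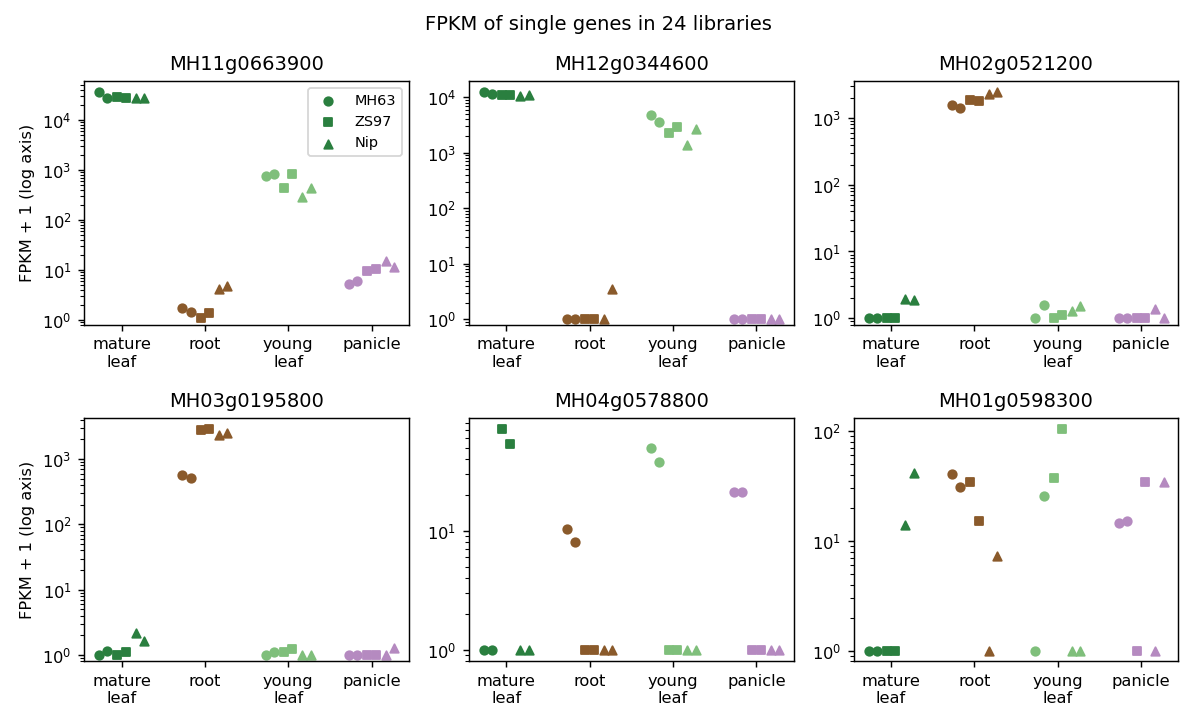
FPKM + 1 (log axis) of 6 genes in mature leaf, root, young leaf and panicle, with 1 point per library and shape for variety. The 4 genes named by rule separate mature leaf from root in every variety, as the rule required. MH04g0578800 and MH01g0598300, chosen for opposite directions, have their higher tissue in different varieties.

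Another 3 genes, which the study discusses by identifier as examples of regulatory regions, did not pass the cutoffs. Of these, MH08g0085800 was matched from a transcript-style identifier in the text of the study. MH07g0100900 on chromosome 7 had 48.4 to 104.6 FPKM in mature leaf and 54.7 to 70.6 FPKM in root, with overlapping tissues and a log2 difference of -0.04 ± 0.17 (SE, limma adjusted p = 0.849). This depended on the processing, since the difference was -0.96 after scaling to equal sums (limma adjusted p = 6.3e-05) and -0.22 without MH63 mature leaf replicate 1 (limma adjusted p = 0.0149). MH02g0167000 on chromosome 2 had 3.88 to 6.39 FPKM in mature leaf and 1.11 to 3.02 FPKM in root. Its values did not overlap, and the log2 difference was 0.999 ± 0.12 (SE, limma adjusted p = 1.9e-05), below the cutoff of 1.5, with 0.31 after scaling to equal sums (limma adjusted p = 0.132). MH08g0085800 on chromosome 8 had 40.5 and 53.7 FPKM in MH63 mature leaf against 29.1 and 27.9 in MH63 root, 12.1 and 10.8 against 6.48 and 6.62 in ZS97 and 29.2 and 32.3 against 19.6 and 27.4 in Nip. Within each variety mature leaf lay above root, by 0.60 ± 0.11 on the log2 scale (SE, limma adjusted p = 4.4e-04), but after scaling to equal sums the sign turned to -0.28 (limma adjusted p = 0.0648). ZS97 had the lowest values in both tissues.

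Within each variety the comparison was fitted with a mean for each of the 6 groups. In MH63, 8947 genes (38.3%) were called, 3760 higher in mature leaf and 5187 higher in root. ZS97 had 7761 calls (33.3%), 3012 and 4749, and Nip had 7994 (34.3%), 3599 and 4395. Root calls outnumbered mature leaf calls in each variety, and mature leaf calls were 42.0% of all calls in MH63, 38.8% in ZS97 and 45.0% in Nip. MH63 and ZS97 shared 6483 calls of the same direction, 72.5% of those in MH63 and 83.5% of those in ZS97. MH63 and Nip shared 6166 (68.9% and 77.1%), and ZS97 and Nip shared 5952 (76.7% and 74.5%). In all 3 varieties 2245 genes were called higher in mature leaf and 3169 higher in root. Across the genes tested, the log2 differences of 2 varieties correlated with Pearson coefficients of 0.907 (MH63 and ZS97), 0.889 (ZS97 and Nip) and 0.872 (MH63 and Nip). These coefficients are descriptions, since genes are not independent and the libraries of a tissue share their growth conditions.

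**Figure D4:**
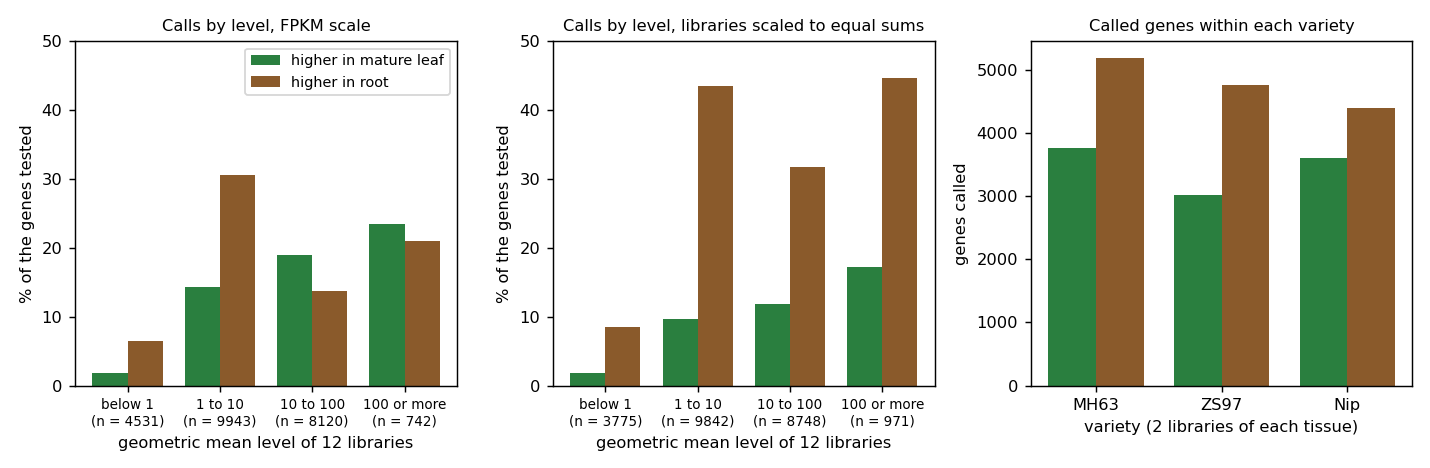
Left and middle, share of the genes tested that were called higher in mature leaf or in root (in %), by geometric mean level over the 12 libraries, on the FPKM scale and after scaling to equal sums. At 10 to 100 the mature leaf share is above the root share on the FPKM scale (18.95% and 13.79%) and below it after scaling (11.9% and 31.7%). Right, number of genes called in each variety from 2 libraries of each tissue, where root calls outnumber mature leaf calls (5187 against 3760 in MH63, 4749 against 3012 in ZS97 and 4395 against 3599 in Nip).

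Whether the tissue difference depends on the variety was tested directly by the interaction of tissue and variety. The limma F test passed for 11569 genes (49.6%) at an adjusted p below 0.05, and for 4080 genes (17.5%) the tissue difference of 2 varieties also differed by more than 1.5 on the log2 scale. Of these 4080 genes, 2315 had the same sign in all 3 varieties, so the size and not the direction differed. By pairs, the interaction was above 1.5 for 1687 genes between MH63 and ZS97, 2045 between ZS97 and Nip and 2804 between MH63 and Nip. Nip differed from both other varieties by more than 1.5 for 1181 genes, with 774 more toward mature leaf and 407 more toward root. MH63 did so for 841 genes (464 and 377) and ZS97 for 461 (159 and 302). Of the 4080 genes, 50.5% had a mean below 10 FPKM in both tissues, against 46.2% of all genes tested, and 16.8% were at 0 in all 4 libraries of a variety, against 9.69%. The study mapped reads to the genome of MH63 or ZS97, and reads of a variety that do not match the gene models would be missing, whose part in the interaction was not tested. The ZS97 mature leaf libraries carry column numbers that fit with those of Nip rather than with those of ZS97 root. What the numbers stand for is not given. The tissue difference of ZS97 crosses the 2 number series, and Nip differs from MH63 in series as well as in variety, so these cannot be told apart. Without ZS97 the tissue comparison gave 3499 calls for mature leaf and 4676 for root.

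Opposite directions were rare. For 54 genes (0.231% of those tested) a variety was called higher in mature leaf and another higher in root. The interaction passed for all 54, which adds no support, since opposite calls in the same fit already set the varieties apart. The patterns seen most often were higher in root in MH63 and higher in mature leaf in Nip, with no call in ZS97 (11 genes), and higher in mature leaf in MH63 and in root in ZS97, with no call in Nip (10 genes). MH63 and ZS97 both opposed Nip in 11 genes, 9 of which were higher in root in the indica pair. The 2 genes with the largest opposite changes were chosen after their values were seen, among genes whose interaction passed. MH04g0578800 on chromosome 4 had 71.0 and 52.8 FPKM in ZS97 mature leaf and 0 in the other 6 ZS97 libraries. In MH63 it had 9.39 and 7.04 FPKM in root, 0 in mature leaf, 48.2 and 36.6 in young leaf and 20.2 and 20.1 in panicle, and in Nip it was at 0 in all 8 libraries. Its log2 difference was 5.96 in ZS97 and -3.19 in MH63 (interaction, limma adjusted p = 4.5e-07). MH01g0598300 on chromosome 1 had 39.9 and 30.1 FPKM in MH63 root and 33.0035 and 14.0189 in ZS97 root, and 0 in the mature leaf of both. In Nip it had 0 and 6.34 FPKM in root and 12.9 and 40.6 in mature leaf. Replicates of this gene also differed by 0 against 24.7 FPKM in MH63 young leaf, so single libraries decide part of its pattern.

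The called genes were then followed in young leaf and panicle. Young leaf shares the organ with mature leaf but the phytotron with root, and panicle shares the field with mature leaf. Genes called higher in mature leaf had a median log2(FPKM + 1) level of 5.22 in mature leaf, 4.10 in young leaf, 2.37 in panicle and 1.76 in root. Of these 3222 genes, 2057 (63.8%) had a young leaf level nearer to that of mature leaf than to that of root, and 421 (13.1%) had a panicle level nearer to mature leaf. Genes called higher in root had medians of 3.96 in root, 2.95 in panicle, 2.68 in young leaf and 0.70 in mature leaf. For the 4614 root genes young leaf and panicle stood midway, with 2200 (47.7%) nearer to root in young leaf and 2444 (53.0%) in panicle. These positions are on the FPKM scale, between end points that also made the call. They were not taken for all genes tested, so they have no background. All genes tested had medians between 2.55 and 3.02 in the 4 tissues. The call fixes part of the order of the 4 tissues, so the next counts are a description. All genes tested had passed the filter in mature leaf or root, so genes expressed only in the other tissues are missing. Of the genes called higher in mature leaf, 2631 (81.7%) were highest there and 500 (15.5%) in young leaf, beside 27.7% and 18.2% of all genes tested. Of the root genes, 2911 (63.1%) were highest in root and 1296 (28.1%) in panicle, beside 27.001% and 27.08% of all genes tested. Mature leaf was the lowest tissue for 3538 (76.7%) of the root genes and for 34.4% of all genes tested.

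**Figure D5:**
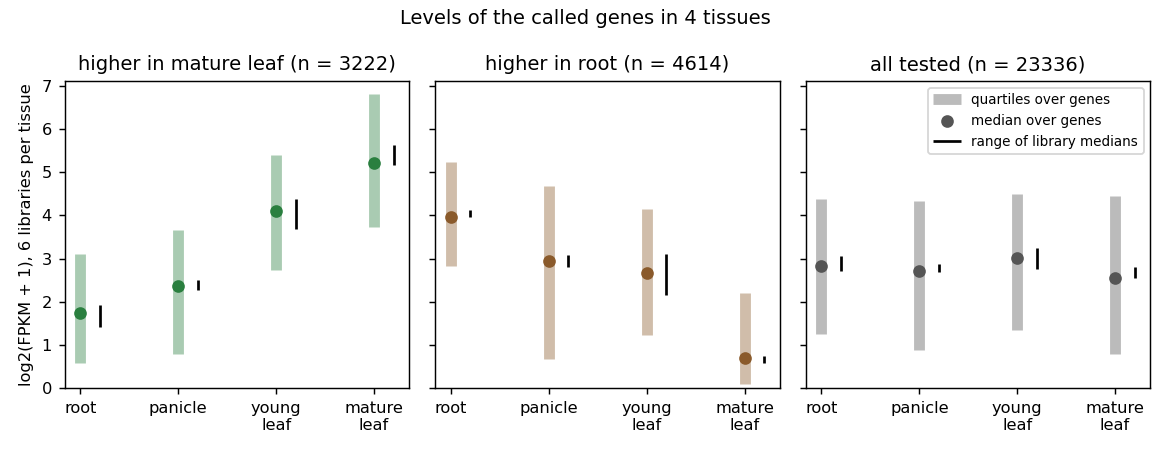
Level of the genes called higher in mature leaf, of those called higher in root and of all genes tested, as log2(FPKM + 1) in 4 tissues with 6 libraries each. Dots and thick bars are the median and quartiles over genes of the mean of 6 libraries, and black lines span the medians of single libraries. The median of the mature leaf genes falls from 5.22 in mature leaf to 4.10 in young leaf, 2.37 in panicle and 1.76 in root.

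Young leaf and panicle share no library with mature leaf and root, so their difference is a separate measurement of the same genes. Here the leaf came from the phytotron and the other organ from the field. Panicle is not root, and plant age and stage differ as well, so organ and growth place are not separated. The same limma test on these 12 libraries, added after seeing the data, called 15.3% of all genes tested higher in young leaf and 7.42% higher in panicle. The genes tested had passed the filter in mature leaf or root. Genes expressed only in young leaf or panicle are thus missing from this background, and genes expressed only in mature leaf or root are part of it. Of the genes called higher in mature leaf, 1619 (50.2%) were higher in young leaf than in panicle and 58 (1.80%) higher in panicle, with a median log2 difference of 1.54 against 0.05 for all genes tested. Of the genes called higher in root, 676 (14.7%) were higher in young leaf and 960 (20.8%) higher in panicle, with a median of -0.14. The mature leaf genes thus lay above the background toward young leaf, and the root genes lay above it toward panicle and near it toward young leaf. With quantile normalization the background was 12.6% and 10.5%, the mature leaf genes were at 40.2% and 2.87% and the root genes at 12.8% and 25.3%. After scaling to equal sums the background was 14.8% and 11.3%, with 57.3% and 2.92% for the mature leaf genes and 12.1% and 23.2% for the root genes. Libraries of a variety share its genotype and its match to the gene models in both comparisons.

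Chromatin classes of the study, defined in MH63 young leaf, were read in the same comparison as a description. H3K4me3 and H3K27ac mark active promoters, H3K4me1 marks transcribed gene bodies and H3K9me2 marks silent heterochromatin and transposons. The lists were used as far as they were given and some are partial, so counts apply to the listed genes. Genes whose nucleosomes held H3K4me3 along with H3K27ac by sequential ChIP were mostly expressed, as 863 of 987 passed the filter, with 107 called higher in mature leaf (12.4%) and 153 higher in root (17.7%), near the background of 13.8% and 19.8%. Genes with these marks by separate ChIP but not by sequential ChIP were fewer, and 58 of 97 passed the filter. Of these 58, 8 (13.8%) were called higher in mature leaf and 25 (43.1%) higher in root, with a median log2 difference of -1.14 against -0.17 for all genes tested. Their median level was 0.651 FPKM in mature leaf and 3.91 FPKM in root.

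Promoters with RNAPII but neither H3K4me3 nor H3K27ac belonged to 1228 listed genes, of which 540 (44.0%) were at 0 in all 12 libraries and 424 (34.5%) passed the filter. Over all listed genes these shares were 38.9% and 40.8%. Of the 424, 56 (13.2%) were called higher in mature leaf and 54 (12.7%) higher in root, beside 13.8% and 19.8% of all genes tested. For promoters with H3K27ac but neither H3K4me3 nor RNAPII, 318 of 770 genes passed, with 37 (11.6%) and 75 (23.6%) called. Toward mature leaf, both kinds of promoter lay slightly below the share of all genes tested. Toward root, RNAPII promoters lay below it and H3K27ac promoters somewhat above it, and none of these differences was tested.

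Of the 1659 genes under H3K9me2 without H3K4me1, 939 (56.6%) were listed at 0 in all 12 libraries, beside 38.9% of all listed genes, and 100 (6.03%) passed the filter. Of those 100, 9 were called higher in mature leaf and 5 higher in root. Over all genes tested these shares were 13.8% and 19.8%, the background for each class in this paragraph. Genes that carried H3K4me1 and H3K9me2 together passed the filter in 74 of 108 cases, with 9 (12.2%) called in each direction. H3K4me1 without H3K9me2 was listed for 181 genes, of which 163 passed, with 25 (15.3%) called higher in mature leaf and 14 (8.59%) higher in root. Genes with a Copia retrotransposon in an intron passed in 288 of 324 cases, with 56 (19.4%) called higher in mature leaf and 34 (11.8%) higher in root. With Copia in an exon 116 of 163 passed, with 18 (15.5%) and 11 (9.48%). Both Copia lists hold genes chosen by their young leaf expression, and the median log2 difference was 0.16 for introns and 0.30 for exons. The H3K4me1 and H3K9me2 state with Copia in an intron held 64 genes, which all passed, with 9 (14.1%) higher in mature leaf and 14 (21.9%) higher in root, near the background. The same state with Copia in an exon held 18 genes, of which 9 passed and 0 were called. The paper limited these state lists by expression too, so the passing share is partly built in. An interaction with variety above 1.5, at 17.5% of all genes tested, was found for 34.5% of the tested genes with H3K4me3 and H3K27ac by separate ChIP only and for 31 of the 100 under H3K9me2 without H3K4me1. The share was 25.9% for Copia in an exon, 22.6% for Copia in an intron, 21.9% for RNAPII promoters and 19.5% for H3K27ac promoters. It was 12.3% for H3K4me1 without H3K9me2, 12.2% for both of these marks and 10.5% for the sequential ChIP genes.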

How the data were processed

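The authors trimmed reads with Trimmomatic (0.36), mapped them with TopHat2 (2.1.0) to the MH63 or ZS97 genome and quantified genes with Cufflinks (2.2.1 in the methods and 2.2.5 in the submitters' processing notes). The deposited values are FPKM per gene. Value columns are numbered in 2 series. The MH63 libraries and the young leaf, panicle and root libraries of ZS97 hold 1 to 14. The Nip libraries and the mature leaf libraries of ZS97 hold 1 to 10. What the numbers stand for, and whether a scaling across libraries is part of the values, is not given in the sources used here. Depth is unknown, so no counting error or detection limit is given, and 6 to 13 genes per library had values above 0 and below 0.0001 FPKM. No 2 libraries held identical values. The 34 files of 17 other varieties were not used.

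Relative depth was estimated from the steps between low values. Tissues were tested with limma (3.58.1, R 4.3.3; lmFit, eBayes with trend, two-sided) on log2(FPKM + 1) over genes that averaged above 1 FPKM in 1 or more groups, with variety as a block, and with a mean per group for the interaction (F test, Benjamini-Hochberg adjustment). Single values were also tested by exact permutation within variety. The limma fits and the depth estimate were tested on simulated data. Alternatives changed scaling, pseudocount, filter, cutoff, trend, variety block, replicate block and libraries used. Genes named are the 2 in each direction with the largest change among called genes with no overlap and at least 10 FPKM. Added to these are 3 from the text of the study, MH08g0085800 by a transcript-style identifier, and 2 chosen after their values were seen. Chosen lists of pathway genes were not used, since identifiers are not paired with symbols. Python 3.11.15 (numpy 2.4.6, pandas 2.3.3) served for the rest. The samples, lists and tests were chosen with earlier results of these data known.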

Additional observations from a re-analysis of the deposited data

Results flagged for a closer look

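In 4 of 26 groups of 6 libraries checked, a library lay far from the other 5. Chance gives about 1 in 20 groups for 6 alike values, a rate that need not hold here, since each group joins 2 replicates of 3 varieties and some genes are mostly at 0. MH63 mature leaf replicate 1 had 35527.9 FPKM of MH11g0663900, against 26930 to 28040 in the other mature leaf libraries, and 104.6 FPKM of MH07g0100900, against 48.4 to 54.6. Nip mature leaf replicate 2 had 40.6 FPKM of MH01g0598300 against 0 to 12.9. Nip root replicate 2 had 2.58 FPKM of MH12g0344600, which was at 0 in the other root libraries.

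For 5 of the genes described one by one, the difference between mature leaf and root depended on the variety (limma F test of the interaction). The same test passed for 49.6% of all genes tested. MH04g0578800 and MH01g0598300 were chosen among genes that passed it, so their result was fixed. MH11g0663900 had log2 differences of 14.29 in MH63, 14.46 in ZS97 and 12.58 in Nip (adjusted p = 5.2e-04). Its sizes in MH63 and ZS97 rest on the added 1 FPKM, since root was below 1 FPKM in both. MH02g0521200 had -10.52, -10.84 and -10.28 (adjusted p = 0.0061), sizes that rest on the added 1 FPKM since mature leaf was at 0 in MH63 and ZS97 and below 1 FPKM in Nip, and MH03g0195800 had -9.00, -11.38 and -10.32 (adjusted p = 1.2e-04). MH04g0578800 had -3.19, 5.96 and 0 (adjusted p = 4.5e-07), and MH01g0598300 had -5.16, -4.50 and 3.15 (adjusted p = 0.0014).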

How the results depend on the processing

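The number of called genes (7836) stayed within 1.5 times under each alternative except 5 FPKM added to each value (4463, with 2300 higher in root), and with it the genes with a variety dependence above 1.5 fell to 1650. Scaling to equal sums gave 7810 genes higher in root, 2720 separated genes higher in mature leaf and -0.28 for MH08g0085800. With the replicate number as a block, 7807 genes were called. Deviations of same-numbered mature leaf and root libraries correlated across genes by 0.03 in MH63, -0.03 in ZS97 and 0.03 in Nip. With so few replicates, these values cannot show whether the numbers pair the libraries. Without single libraries, 7726 to 7915 genes were called, 9467 to 13099 depended on the variety, and 11966 to 12216 did not overlap. MH07g0100900 had -0.96 after scaling to equal sums (limma adjusted p = 6.3e-05), 0.36 in MH63 alone and 0.11 without ZS97, and -0.2244 to 0.0496 without single libraries, where the lowest, without MH63 mature leaf replicate 1, had a limma adjusted p of 0.0149. MH04g0578800 had -3.19 in MH63 alone and -1.60 without ZS97, and MH01g0598300 had 3.15 in Nip alone. The cause was not tested. Low genes in mature leaf are limited by depth if the estimate, which an unknown scaling can change, holds.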

Other observations

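The called genes were spread over the 12 chromosomes named in the identifiers. Between 29.7% (chromosome 11) and 36.8% (chromosome 1) of the genes tested on a chromosome were called, and on each chromosome more were higher in root than in mature leaf, with 12.1% to 15.4% and 17.6% to 21.7% of the genes tested. The share of listed genes that passed the filter ranged from 30.1% on chromosome 11 to 49.4% on chromosome 3.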
